A study of Arabidopsis with 24 samples.

Results

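The 8 genes described here encode enzymes of brassinosteroid (BR) biosynthesis in Arabidopsis: DWF1 (AT3G19820), DWF4 (AT3G50660), CPD (AT5G05690), DET2 (AT2G38050), ROT3 (AT4G36380), CYP90D1 (AT3G13730), BR6OX1 (AT5G38970) and BR6OX2 (AT3G30180). They were taken by their locus codes and make up 8 of the 32833 genes in the deposited expression values. All 8 passed the filter on low values, a mean of at least 0.5 FPKM (fragments scaled to transcript length and sequencing depth), and belong to the 20682 genes tested. The locus codes place DET2 on chromosome 2, DWF1, DWF4, CYP90D1 and BR6OX2 on chromosome 3, ROT3 on chromosome 4, and CPD and BR6OX1 on chromosome 5, and all are annotated as protein-coding. The deposited values list DWF1 as DIM, DWF4 as CYP90B1, CPD as CYP90A1, ROT3 as CYP90C1, BR6OX1 as CYP85A1 and BR6OX2 as CYP85A2.

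Poly(A) RNA of whole seedlings was sequenced from 4 genotypes in the Col-0 background: wild-type Col-0, dvl1-1D, bsk36 and pif47. In dvl1-1D, an activation tag in the RTFL18 promoter causes overexpression of the small peptide RTFL18. The double mutant bsk36 carries T-DNA insertions in BSK3 and BSK6, kinases that act below the BR receptor, and pif47 is mutated in PIF4 and PIF7, transcription factors of shade signaling. After 6 days of growth in white light (WL), seedlings either stayed in WL or spent 6 h under a low ratio of red to far-red light (low R:FR, given as 0.3), which mimics vegetation shade. With 3 replicates for each genotype in each light condition, there were 24 libraries in 8 groups. Each mutant is represented by 1 line, each library pools whole seedlings, and the sources used here do not say whether replicates were grown separately, so the p-values measure the spread between these libraries.

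BR synthesis starts from sterols. DWF1 reduces the sterol side chain and yields campesterol, the precursor, and DET2 is a steroid reductase that acts on the ring system. DWF4 adds a hydroxyl group to the side chain in a step regarded as limiting for the flux, CPD oxidises the ring system, and ROT3 and its relative CYP90D1 add a further side-chain hydroxyl group with overlapping function. BR6OX1 and BR6OX2 catalyse the last oxidations to castasterone, and BR6OX2 also makes brassinolide, the most active BR. Several of these genes are known to be repressed when BR signaling is active, through the transcription factors BZR1 and BES1, and BR promotes the elongation of petioles and hypocotyls in shade.

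Library totals lay between 758368 and 801109 FPKM. Read numbers cannot be had from FPKM, so the absolute depth and the counting error behind each value are unknown. A relative depth, taken from the step size of low values in 118 genes, ran from 0.837 to 1.22. Replicates of a group correlated at 0.957 to 0.970 on the log2 scale. The altered genes followed the labels in WL: RTFL18 stood at 516.81 to 617.6 FPKM in dvl1-1D against 0 to 0.7 in Col-0, BSK3 at 0 to 0.03 in bsk36, and BSK6 averaged 0.42 FPKM in bsk36 against 9.76 in Col-0. PIF7 averaged 0.88 FPKM in pif47 against 11.5 in Col-0 and PIF4 averaged 2.09 against 7.12, so part of the PIF4 transcript was still measured in pif47. PIL1, a shade marker, averaged 0.42 to 0.72 FPKM in the WL groups and 28.2 to 33.9 in the low R:FR groups.

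FPKM are scaled by transcript length, so levels of different genes can be set side by side. DWF1 had the highest level of the 8 genes, with 206.75 to 288.72 FPKM over the 24 libraries and a mean above that of 97.8% of the tested genes. CPD followed with 47.27 to 123.5 FPKM. DET2 ranged from 8.66 to 16.18 FPKM, DWF4 from 8.62 to 12.73, ROT3 from 7.48 to 12.08 and BR6OX2 from 7.08 to 25.71, ranges that overlap. CYP90D1 ranged from 2.97 to 5.22 FPKM, and BR6OX1 was the lowest of the 8 with 1.02 to 2.49. The residual SD between replicates on the log2(FPKM + 0.1) scale was smallest for the most highly expressed gene, DWF1 (0.0535), and largest for the least expressed, BR6OX1 (0.321). ROT3 and CYP90D1, and likewise BR6OX1 and BR6OX2, are related genes. How fragments shared within such a pair were counted is not given in the sources used here, so their separate values carry that uncertainty.

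**Figure D1:**
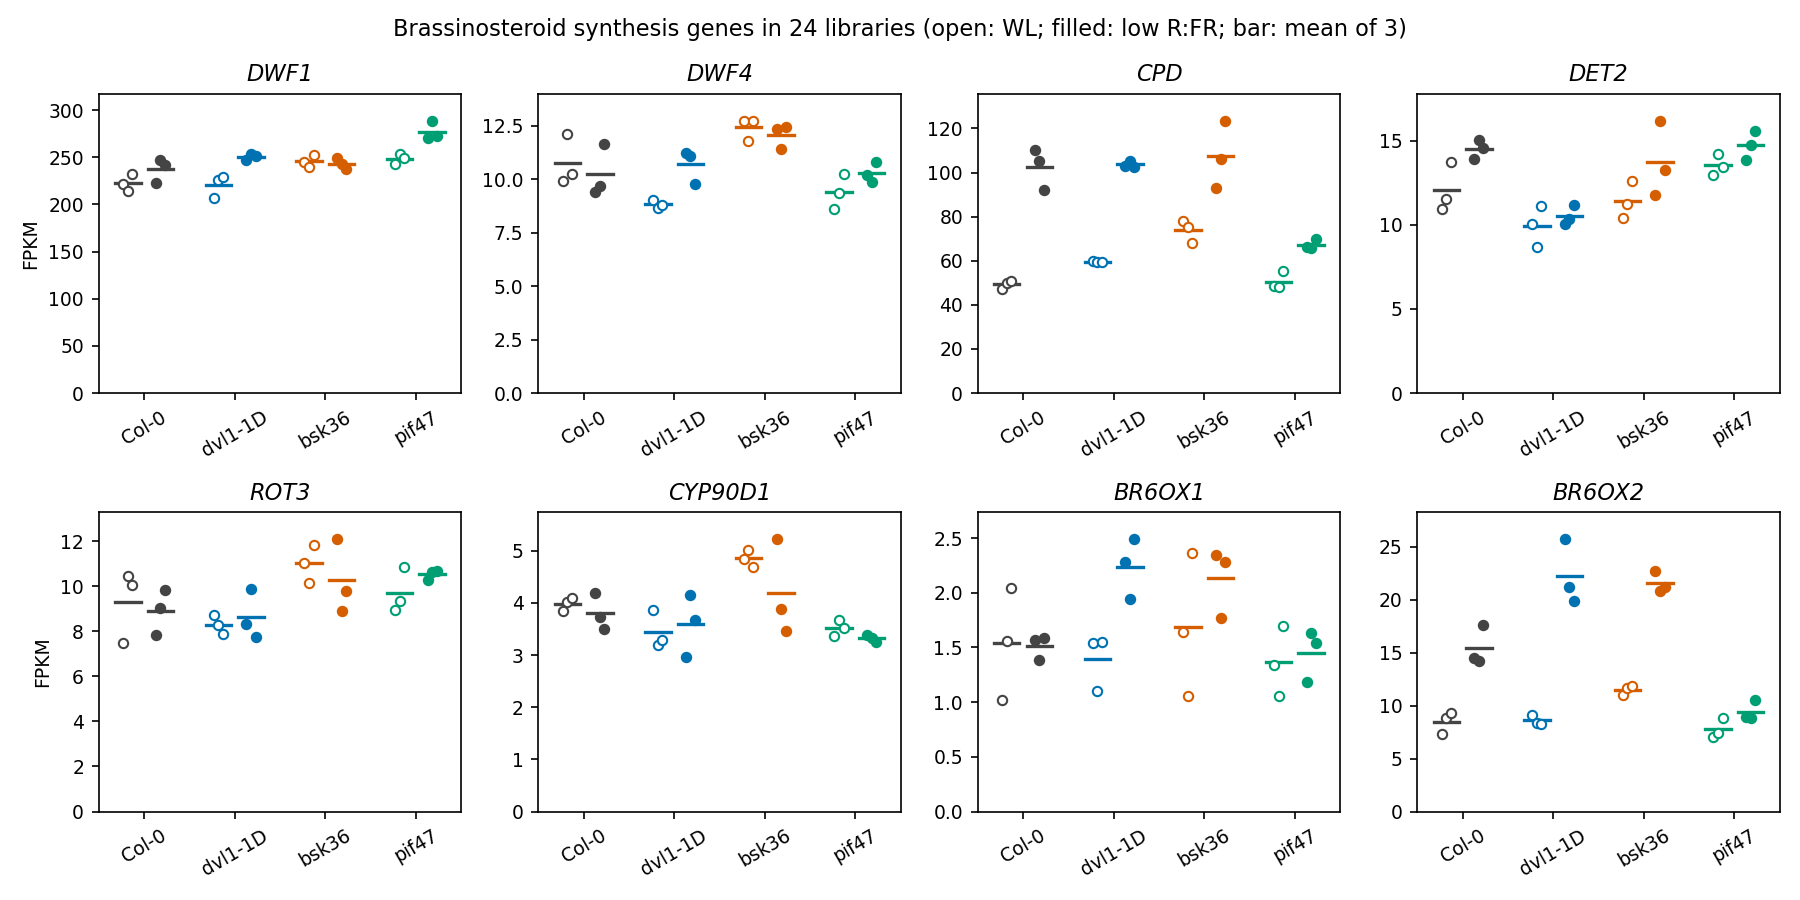
FPKM of the 8 BR synthesis genes in each library, with 1 panel per gene, linear axes that start at 0, open points for WL, filled points for low R:FR and bars for the mean of 3 replicates. Relative to the level of each gene, CPD and BR6OX2 show the widest gaps between light conditions, with means of 49.4 and 102.5 FPKM for CPD in Col-0, whereas the points of DWF4, ROT3 and CYP90D1 overlap between light conditions in Col-0.

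The comparison of light conditions in Col-0 asks which synthesis genes respond to simulated shade. CPD and BR6OX2 rose, and the other 6 genes did not pass the test. Thus 2 of 8 genes were called at a limma adjusted p under 0.05, while 36.7% of all tested genes were called in this comparison. The median log2 difference was 0.06 for the 8 genes and 0.06 for all tested genes.

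CPD measured 47.27, 49.92 and 50.88 FPKM in WL against 110.04, 105.17 and 92.22 in low R:FR. Every low R:FR library lay well above every WL library. Light conditions did not overlap in Col-0 for 3 of the 8 genes and for 43% of all tested genes. Its mean went from 49.4 ± 1.87 to 102.5 ± 9.21 FPKM (SD, n = 3 each), which is 2.07-fold, or 1.05 ± 0.0824 (SE) in log2 units (limma adjusted p = 7.52e-09). BR6OX2 measured 7.35, 8.8 and 9.3 FPKM in WL against 14.46, 14.21 and 17.64 in low R:FR, again without overlap. Its mean went from 8.48 ± 1.01 to 15.4 ± 1.91 FPKM (SD, n = 3 each), which is 1.81-fold, or 0.86 ± 0.112 (SE) in log2 units (limma adjusted p = 5.65e-06). Both calls were made in each of the 32 alternative settings tried.

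The study's methods call a gene at a log2 change of 1 or more in size and P of at most 0.01, taken here as unadjusted. On these terms CPD alone of the 8 genes was called in Col-0, against 3.48% of all tested genes. CPD lies close to the fold threshold. Without low R:FR replicate 1 of Col-0 its log2 difference was 0.996, so that 0 of the 8 genes were then called, although its limma adjusted p was 1.26e-07.

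DET2 measured 10.96, 11.53 and 13.71 FPKM in WL against 13.88, 15.06 and 14.56 in low R:FR in Col-0. The groups were separated by a narrow margin, and the log2 difference of 0.27 ± 0.110 (SE) did not pass (limma adjusted p = 0.0611). It passed in 6 of the 32 alternatives, of which 4 left out 1 library (WL replicate 3 of Col-0, WL replicate 2 of dvl1-1D, or low R:FR replicates 1 or 2 of bsk36), with adjusted p from 0.0207 to 0.04996. DWF1 differed by 0.09 (limma adjusted p = 0.155) and passed without low R:FR replicate 1 of Col-0 (adjusted p = 0.0437). DWF4, the step regarded as limiting, differed by -0.07, and the 95% confidence interval of -0.26 to 0.12 leaves out a rise of the size measured for CPD.

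Shoot and root RNA were present in every group, since all 4 green shoot markers and all 4 root markers were above 0 in each library. The summed FPKM of the root markers PYK10, BGLU22, PER57 and FRO2 was 1833 to 2042 in WL and 971.4 to 1439 in low R:FR in Col-0, 1710.0 to 1894 and 1395 to 1584 in dvl1-1D, 1499.6 to 1529.6 and 1170.3 to 1519.9 in bsk36, and 1731 to 2002 and 1666 to 1763 in pif47. The sums of the light conditions were apart in Col-0 and dvl1-1D and overlapped in bsk36 and pif47, but they rest almost wholly on PYK10, with a mean of 1848 of 1959 FPKM in Col-0 in WL. By single markers, PYK10 (-0.76) and FRO2 (-2.19) were lower under low R:FR in Col-0, while BGLU22 (-0.07) and PER57 (0.07) did not pass the test. FRO2 was also lower in dvl1-1D (-1.53), bsk36 (-1.30) and pif47 (-1.85), where it was the 1 called root marker of 4. Green shoot marker sums lay between 23442 and 30411 FPKM, made up mostly of RBCS1A and RCA, and did not overlap between lights in dvl1-1D (27311 to 28753 in WL and 24317 to 26533 in low R:FR). Their members moved in opposite directions in Col-0, where RBCS1A was lower (-0.45, limma adjusted p = 0.000329) and LHCB3 (0.60) and CAB3 (0.24) were higher. The same 3 genes were called in these directions in dvl1-1D, together with RCA (lower), and in pif47, and 0 of the 4 were called in bsk36, where 0 also had an unadjusted limma p under 0.05. The part of root or shoot RNA in the differences of CPD and BR6OX2 was not tested, and in whole seedlings fewer cells of a type and less RNA per cell cannot be told apart.

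In the mutants, the same comparison shows whether the responses of CPD and BR6OX2 were retained. CPD rose in all 3 mutants, with log2 differences of 0.80 (dvl1-1D), 0.53 (bsk36) and 0.41 (pif47). BR6OX2 rose in dvl1-1D and bsk36 and did not pass the test in pif47. In dvl1-1D, 4 of 8 genes were called, DWF1, DWF4, CPD and BR6OX2, all higher, against 19.0% of all tested genes. In bsk36 these were CPD and BR6OX2, 2 of 8 against 17.3%, and in pif47 DWF1 and CPD, 2 of 8 against 18.3%. The median log2 difference of the 8 genes in the 3 mutants, in that order, was 0.23, 0.12 and 0.13, beside 0.03, -0.01 and 0.03 for all tested genes.

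CPD measured 60.01, 59.31 and 59.63 FPKM in WL against 103.11, 105.19 and 102.74 in low R:FR in dvl1-1D (limma adjusted p = 6.19e-07). In bsk36 it measured 77.87, 75.44 and 68.16 against 92.81, 106.35 and 123.5 FPKM (limma adjusted p = 8.97e-05). In pif47 it measured 48.45, 48.04 and 55.19 against 66.22, 65.68 and 70.05 FPKM (limma adjusted p = 0.00126). Light conditions did not overlap in any genotype, and the CPD responses of all 4 genotypes were called in each of the 32 alternatives. In low R:FR the levels of Col-0, dvl1-1D and bsk36 overlapped, whereas every pif47 library lay below them.

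BR6OX2 measured 9.15, 8.4 and 8.24 FPKM in WL against 25.71, 21.17 and 19.85 in low R:FR in dvl1-1D, which is 2.56-fold, or 1.35 ± 0.112 (SE) in log2 units (limma adjusted p = 2.62e-08). In bsk36 it measured 10.98, 11.65 and 11.87 against 22.69, 20.81 and 21.18 FPKM, a rise of 0.90 in log2 units (limma adjusted p = 6.82e-06). In pif47 it measured 7.08, 7.37 and 8.85 against 8.95, 8.83 and 10.54 FPKM. The pif47 groups overlapped, and the log2 difference of 0.28 did not pass (limma adjusted p = 0.0884), except without WL replicate 3 of pif47 (0.38, adjusted p = 0.0313). By the study's thresholds BR6OX2 alone of the 8 genes was called in dvl1-1D, against 1.77% of tested genes. In bsk36 and pif47 0 of the 8 passed them, against 2.0% and 1.09% of tested genes, although 3 genes in each had an unadjusted limma p under 0.05.

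**Figure D2:**
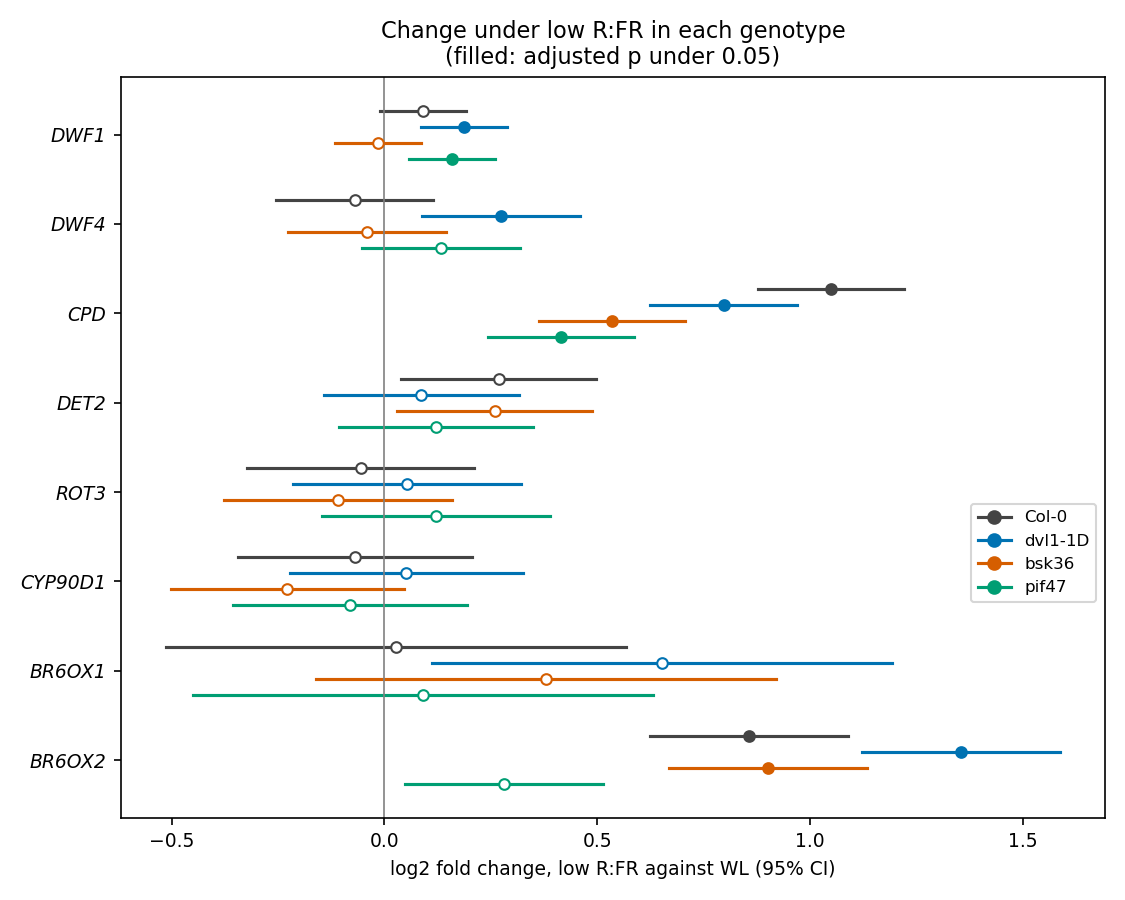
Log2 difference between low R:FR and WL of the 8 genes in each genotype, with 95% confidence intervals from limma and filled points for a limma adjusted p under 0.05. The CPD response is 1.05 in Col-0 and 0.80, 0.53 and 0.41 in the mutants as ordered, and the interval of BR6OX2 in dvl1-1D, from 1.12 to 1.59, lies above that in pif47, from 0.05 to 0.51.

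Differences between these responses were tested as genotype by light interactions. For CPD the interaction was -0.63 ± 0.116 (SE) in pif47 (limma adjusted p = 0.00408) and -0.51 ± 0.116 in bsk36 (limma adjusted p = 0.0212), a smaller response than in Col-0 in both. CPD was the 1 called gene of the 8 in each, against 2.44% of all tested genes in pif47 and 3.03% in bsk36. In dvl1-1D 0 of the 8 genes passed in limma, against 2.34% of tested genes, and 3 had an unadjusted p under 0.05, DWF4 (0.34), CPD (-0.25) and BR6OX2 (0.50).

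The pif47 interaction of CPD was called in each of the 32 alternatives, with adjusted p from 0.000905 to 0.0159. The bsk36 interaction of CPD was lost in 7 of them. These were the libraries scaled to a common median (-0.46, adjusted p = 0.0591), the groups of the comparison alone (adjusted p = 0.138), and 5 fits without 1 library (WL replicate 1 of Col-0, low R:FR replicate 2 of Col-0, WL replicate 1 of bsk36, or low R:FR replicates 1 or 2 of bsk36, with adjusted p from 0.0503 to 0.0626).

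Of the 8 root and shoot markers, the pif47 interaction was called for PYK10 (0.62), CAB3 (0.60) and LHCB3 (0.55), and the bsk36 interaction for LHCB3 (-0.49), and their part in the CPD interactions was not tested.

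The smaller CPD response took a different form in the 2 mutants. In bsk36 CPD was already higher in WL than in Col-0, and in low R:FR its level overlapped that of Col-0. In pif47 the WL level differed from Col-0 by 0.03 in log2 units, with confidence limits of -0.14 and 0.20, and the low R:FR level was lower.

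The interaction of BR6OX2 did not pass in any mutant. Its values were 0.50 for dvl1-1D (95% confidence interval 0.17 to 0.83, limma adjusted p = 0.0937), 0.04 for bsk36 (-0.28 to 0.37, adjusted p = 0.916) and -0.58 for pif47 (-0.91 to -0.25, adjusted p = 0.0586). In pif47 it passed with a filter at a mean FPKM of 5 (adjusted p = 0.0461) and without WL replicate 3 of Col-0, low R:FR replicate 1 of dvl1-1D or low R:FR replicate 3 of pif47 (adjusted p from 0.0411 to 0.0463). In dvl1-1D it passed without low R:FR replicate 3 of Col-0 (0.60, adjusted p = 0.0355), as did DWF4 (0.44, adjusted p = 0.0430).

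The mutants were also compared with each other, in 3 comparisons chosen after these values were seen. The BR6OX2 response was larger in dvl1-1D than in pif47 by 1.07 ± 0.158 (SE) in log2 units (limma adjusted p = 0.000527), the 1 called gene of the 8, against 1.58% of tested genes. It was also larger in bsk36 than in pif47 by 0.62 (limma adjusted p = 0.0389), 1 of 8 against 2.37%. This call was lost in 12 of the 32 alternatives, among them 10 fits without 1 library (any of the 6 bsk36 libraries, WL replicates 2 or 3 of pif47, or low R:FR replicates 1 or 2 of pif47, with adjusted p from 0.0580 to 0.106). Between dvl1-1D and bsk36, 0 of the 8 genes passed in limma (BR6OX2 0.45, adjusted p = 0.335), 4 had an unadjusted p under 0.05, and 0.0967% of tested genes were called. For CPD the response of dvl1-1D exceeded that of pif47 by 0.38 (limma adjusted p = 0.132), a difference that passed with the 4 groups alone (adjusted p = 0.0258).

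**Figure D3:**
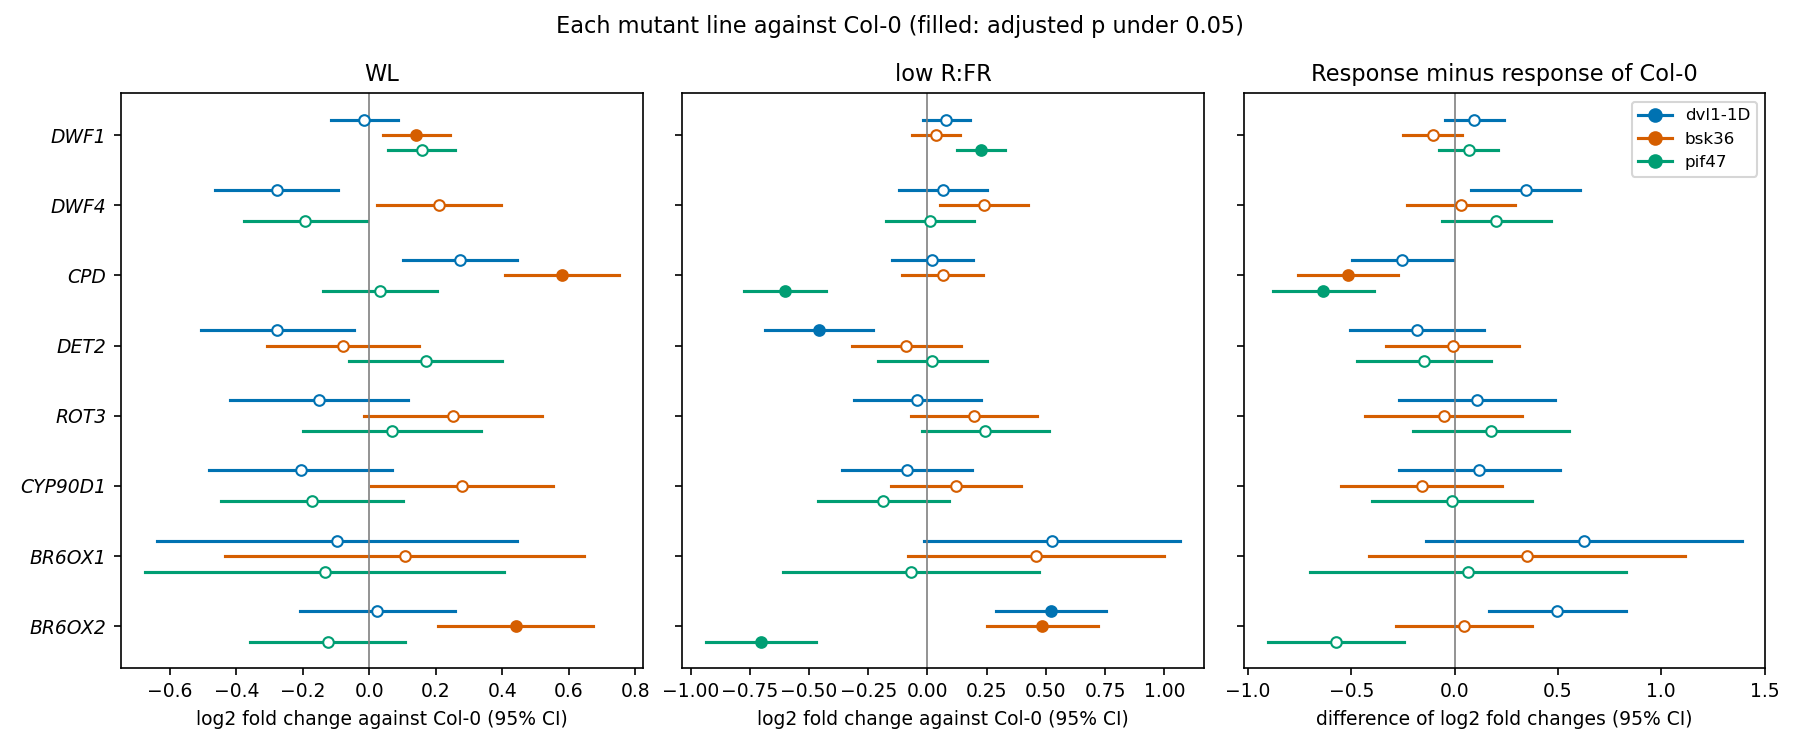
Log2 difference of each mutant from Col-0 in WL (left) and low R:FR (middle), and the difference between its low R:FR response and that of Col-0 (right), with 95% confidence intervals and filled points for a limma adjusted p under 0.05. CPD in bsk36 is higher in WL (0.58) with an interaction of -0.51, and CPD and BR6OX2 in pif47 are lower in low R:FR (-0.60 and -0.70).

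Among the mutants in WL, synthesis genes were called in bsk36. There 3 of 8 genes were higher than in Col-0, CPD, BR6OX2 and DWF1, against 18.6% of tested genes called. Over all tested genes higher calls were the more frequent, with 2835 higher and 1016 lower. The median log2 difference was 0.23 for the 8 genes and 0.08 for all tested genes. Libraries of bsk36 and Col-0 did not overlap for 4 of the 8 genes and for 35.4% of tested genes. CPD measured 68.16 to 77.87 FPKM against 47.27 to 50.88 in Col-0, which is 1.49-fold, or 0.58 ± 0.0824 (SE) in log2 units (limma adjusted p = 0.000205), and was called in each alternative. BR6OX2 measured 10.98 to 11.87 FPKM against 7.35 to 9.3, also without overlap. Its log2 difference was 0.44 (limma adjusted p = 0.010), and the call was lost without WL replicate 1 of Col-0 (0.34, adjusted p = 0.0754) and with the 2 groups alone (adjusted p = 0.0702). DWF1 differed by 0.14 (limma adjusted p = 0.0463), which was lost in 20 of the 32 alternatives and was 0.06 with the libraries scaled to a common median. The root marker sum of bsk36 in WL, 1499.6 to 1529.6 FPKM, was below the 1833 to 2042 of Col-0. Of its 4 genes PYK10 (-0.38) and FRO2 (-1.49) were lower, whereas BGLU22 averaged 46.8 FPKM against 33.8 in Col-0, without overlap (0.46, limma adjusted p = 0.142). Of the 4 green shoot markers 1 was called higher and 1 lower. LHCB3 measured 2902 to 3286 FPKM in bsk36 against 2228 to 2373 in Col-0. RBCS1A went the other way, with 13847 to 15030 against 16438 to 19182 FPKM, as did RCA, with 6551 to 6840 against 7118 to 7585. The part of the root and shoot markers in these differences was not tested.

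In dvl1-1D in WL the libraries did not overlap Col-0 for 2 of the 8 genes and for 23.8% of tested genes. By limma 0 of the 8 passed, against 4.63% of tested genes, and 3 had an unadjusted p under 0.05. Of these, CPD measured 59.31 to 60.01 FPKM, above all Col-0 libraries (0.27, limma adjusted p = 0.0615). DWF4 measured 8.66 to 9.02 FPKM, below the Col-0 range of 9.92 to 12.1 (-0.28, adjusted p = 0.0755). CPD passed with the 2 groups alone (adjusted p = 0.0475) and without low R:FR replicate 3 of Col-0, or low R:FR replicates 1 or 3 of bsk36 (0.0277 to 0.0475). DWF4 passed with the libraries scaled to a common median (-0.31, adjusted p = 0.0285). In pif47 in WL 0 of the 8 passed in limma, against 3.65% of tested genes, with 2 at an unadjusted p under 0.05. The BR6OX2 levels of Col-0, dvl1-1D and pif47 in WL overlapped.

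In low R:FR, BR6OX2 was higher in dvl1-1D and bsk36 than in Col-0 and lower in pif47. The libraries of each mutant were clear of those of Col-0, at 19.85 to 25.71 FPKM in dvl1-1D, 20.81 to 22.69 in bsk36 and 8.83 to 10.54 in pif47 against 14.21 to 17.64 in Col-0. Such a separation from Col-0 was found for 27.3% (dvl1-1D), 16.7% (bsk36) and 29% (pif47) of tested genes. The log2 difference was 0.52 ± 0.112 (SE) in dvl1-1D (limma adjusted p = 0.00565), 0.49 in bsk36 (adjusted p = 0.0299) and -0.70 in pif47 (adjusted p = 0.000197). The bsk36 call was lost without any 1 of the 3 bsk36 libraries or without low R:FR replicates 1 or 2 of Col-0 (adjusted p from 0.0556 to 0.173). With the 2 groups alone the adjusted p was 0.262 in bsk36 and 0.0944 in dvl1-1D, while the pif47 call was made in each alternative.

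CPD was lower in pif47 than in Col-0 in low R:FR by 0.60 in log2 units (log2 difference -0.60, interval -0.77 to -0.43, limma adjusted p = 3.69e-05). It differed from Col-0 by 0.02 in dvl1-1D (-0.15 to 0.19) and 0.06 in bsk36 (-0.11 to 0.24). In these 2 mutants BR6OX2 was therefore above its Col-0 level in low R:FR while the CPD libraries overlapped Col-0. The root marker sum of pif47 in low R:FR, 1666 to 1763 FPKM, was above the 971.4 to 1439 of Col-0. Of its 4 genes PYK10 alone was called (0.55), and FRO2 averaged 4.29 FPKM against 5.27 in Col-0. In dvl1-1D in low R:FR 1 of the 4 root markers was called higher than in Col-0, while the sums, 1395 to 1584 FPKM in dvl1-1D, overlapped. In bsk36 in low R:FR 0 of the 4 were called. The part of the root markers in the low R:FR differences of the synthesis genes was not tested. By number, dvl1-1D in low R:FR had 1 gene higher, BR6OX2, and 1 lower, DET2, against 9.40% of tested genes called. In bsk36 BR6OX2 was the 1 gene called, against 1.44%, and in pif47 DWF1 was higher and CPD and BR6OX2 lower, 3 of 8 against 13.5%.

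DWF1, at the entry to the pathway, measured 222.89 to 247.46 FPKM in Col-0 and 270.52 to 288.72 in pif47 in low R:FR. Every pif47 library was higher, by 0.23 ± 0.0483 (SE) in log2 units (limma adjusted p = 0.00332), and this was the highest DWF1 level of the 8 groups, above dvl1-1D in low R:FR (247.23 to 253.4). With the 2 groups alone the adjusted p was 0.0868. DWF1 rose under low R:FR in dvl1-1D (1.14-fold, limma adjusted p = 0.00925) and in pif47 (1.12-fold, adjusted p = 0.0267). The dvl1-1D call was lost without WL replicate 1 of dvl1-1D (adjusted p = 0.0654). The pif47 call was lost without WL replicates 1 or 3 of pif47 or low R:FR replicate 2 of pif47 (0.0509 to 0.121). In pif47 in low R:FR, DWF1 was thus above Col-0 while CPD and BR6OX2 were below it. In WL, DWF1 measured 242.45 to 253.82 FPKM in pif47 against 213.81 to 232.42 in Col-0. These groups did not overlap, as for 22.5% of tested genes, but the difference did not pass in limma.

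DWF4 measured 9.02, 8.66 and 8.77 FPKM in WL against 11.21, 11.08 and 9.79 in low R:FR in dvl1-1D. The groups did not overlap, and the rise was 0.27 ± 0.0889 (SE) in log2 units (limma adjusted p = 0.0356). This call was lost with the 2 groups alone (adjusted p = 0.0530), without any 1 of the dvl1-1D libraries in WL and without low R:FR replicates 1 or 2 of dvl1-1D (adjusted p from 0.0619 to 0.126). The highest group means of DWF4 were those of bsk36, 12.4 FPKM in WL and 12.1 in low R:FR. The WL difference from Col-0, 0.21, did not pass (limma adjusted p = 0.105), except without WL replicate 2 of Col-0 (0.30, adjusted p = 0.0315), the Col-0 library with 12.1 FPKM. All neighbours in the order of the 8 groups overlapped.

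DET2 measured 10.04, 10.35 and 11.2 FPKM in dvl1-1D against 13.88, 15.06 and 14.56 in Col-0 in low R:FR. The dvl1-1D libraries were all lower, at 0.728-fold the level of Col-0, or -0.46 ± 0.110 (SE) in log2 units (limma adjusted p = 0.0117). This call was lost without low R:FR replicate 2 of Col-0 (-0.43, adjusted p = 0.0550) or low R:FR replicate 1 of dvl1-1D (-0.43, adjusted p = 0.0505). In WL the difference was -0.28 (limma adjusted p = 0.157), with overlapping groups. The dvl1-1D groups had the lowest DET2 means of the 8, 9.95 and 10.5 FPKM, and the others averaged 11.4 to 14.7, with overlap between all neighbours in that order.

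ROT3, CYP90D1 and BR6OX1 were not called in any of the 16 comparisons with all libraries. ROT3 group means ran from 8.29 FPKM (dvl1-1D in WL) to 11.0 (bsk36 in WL) and CYP90D1 means from 3.32 (pif47 in low R:FR) to 4.85 (bsk36 in WL). Neighbouring groups overlapped throughout for both. CYP90D1 measured 4.69 to 5.02 FPKM in bsk36 in WL against 3.84 to 4.1 in Col-0, without overlap, but the difference of 0.28 did not pass (limma adjusted p = 0.147). In bsk36 in low R:FR it measured 5.22, 3.88 and 3.47 FPKM. Without replicate 1, the highest, the low R:FR change of CYP90D1 in bsk36 was -0.39 (adjusted p = 0.0353) and that of DET2 was 0.36 (adjusted p = 0.0332). For DET2 and CPD the same library was the lowest of its group.

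BR6OX1 measured 1.54, 1.1 and 1.55 FPKM in WL against 2.28, 1.94 and 2.49 in low R:FR in dvl1-1D. The groups did not overlap, but the difference of 0.65 ± 0.259 (SE) in log2 units did not pass (limma adjusted p = 0.0885). In Col-0 it measured 1.02, 1.56 and 2.04 FPKM in WL against 1.57, 1.39 and 1.59 in low R:FR, so that the WL range enclosed the other. The interval of the Col-0 difference, -0.51 to 0.57, is wide for this gene and leaves the size and sign of a change undecided. The lowest and highest group means were 1.37 FPKM in pif47 in WL and 2.24 in dvl1-1D in low R:FR, the same groups as at the ends of the order for BR6OX2 (7.77 and 22.2 FPKM).

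Across the 24 libraries CPD and BR6OX2 had the closest pattern of any 2 of the 8 genes, with a Pearson r of 0.91 on the log2 scale. With group means removed their r was -0.01, so the likeness lay between groups. DWF4 and ROT3 correlated at 0.65 and, within groups, at 0.71, and DWF4 and BR6OX2 at 0.53 and 0.72. BR6OX1 and BR6OX2 correlated at 0.68 over the libraries. These values describe 24 libraries that share 8 groups and the scaling of each library.

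Among tested genes with a mean of at least 1 FPKM, those most like CPD over the 24 libraries were AT1G69160, annotated as a BIG GRAIN-like protein (r = 0.99), ALDH11A3, an aldehyde dehydrogenase (0.98), and THI2.2 (0.97). Those most like BR6OX2 were AT5G66080, a probable protein phosphatase, the kinase gene listed as CIPK6 (AT4G30960), and ADS1, an acyl-lipid desaturase, each with r = 0.94. For the other 6 genes the highest r was 0.87 for DWF1 (AT1G17450), 0.85 for DET2 (AT5G58530), 0.85 for ROT3 (VSR5), 0.82 for DWF4 (AT4G14360), 0.77 for CYP90D1 (AAP5) and 0.76 for BR6OX1 (AT4G08170). Another BR synthesis gene was not among the 3 genes most like any of the 8.

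Other BR genes were described in 4 lists: sterol synthesis upstream of DWF1, BR inactivation, BR perception and signaling, and regulators named for the synthesis genes. In Col-0, where 36.7% of tested genes were called, 5 of 15 sterol genes were higher under low R:FR and 0 lower, with a median log2 difference of 0.10. The count was 2 with the Col-0 groups alone. SMO2-1 (AT1G07420, listed as SMO2-2 in the deposited values), a sterol methyl oxidase, measured 24.56 to 27.47 FPKM in WL against 38.32 to 43.58 in low R:FR (0.66, limma adjusted p = 3.71e-06). CAS1 (0.23) and SQS1 (0.26), which act near the start of the sterol pathway, and STE1 (0.21), a sterol desaturase, were also higher. In dvl1-1D 7 of the 15 were higher, where 19.0% of tested genes were called in either direction, in bsk36 2 (17.3%) and in pif47 6 (18.3%), and 0 lower in each. The dvl1-1D count fell to 3 or 4 without WL replicates 1 or 3 of dvl1-1D or any of its low R:FR libraries. The pif47 count fell to 3 without WL replicates 1 or 2 of pif47 or replicate 2 in low R:FR.

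Of the 7 inactivation genes, 3 were higher in Col-0 in low R:FR and 0 lower, against 36.7% of tested genes called. Their median was 0.13, beside 0.06 for all tested genes. BAS1 (AT2G26710), a cytochrome P450 that hydroxylates active BR, measured 5.13, 4.96 and 5.02 FPKM in WL against 10.62, 11.63 and 11.23 in low R:FR (1.13, limma adjusted p = 3.97e-09). BEN1 was higher by 0.54 and SOB7 by 0.37, the latter lost without WL replicates 1 or 2 of Col-0 or low R:FR replicate 2 of Col-0 (adjusted p of 0.0585 or more). UGT73C6 measured 3.17 to 3.32 FPKM in WL against 1.81 to 2.35 in low R:FR in Col-0, without overlap. Its difference of -0.58 did not pass (limma adjusted p = 0.474). Over the alternatives 2 or 3 of the 7 genes were called higher and 0 or 1 lower. A gene of BR synthesis, CPD (1.05), and a gene of BR inactivation, BAS1, were thus both higher in low R:FR.

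Of 9 signaling genes 8 were tested, and 3 were higher and 1 lower in Col-0 in low R:FR, against 36.7% of tested genes called. Their median was 0.13, beside 0.06 for all tested genes. BRI1, the BR receptor, measured 36.16 to 37.86 FPKM in WL against 65.66 to 75.61 in low R:FR (0.93, limma adjusted p = 2.38e-08). BZR1 (0.37) and BIN2 (0.32), a kinase that restrains BR signaling, were higher. BES1 was lower (-0.25), a call lost without WL replicates 2 or 3 of Col-0 or low R:FR replicates 1 or 2 of Col-0 (adjusted p from 0.0630). Of the 6 regulators 4 were tested and 3 were higher, against the same 36.7% of tested genes. These were PIF4 (1.75), BRX (AT1G31880, listed as NLM9 in the deposited values, 1.21) and PIF5 (1.20).

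**Figure D4:**
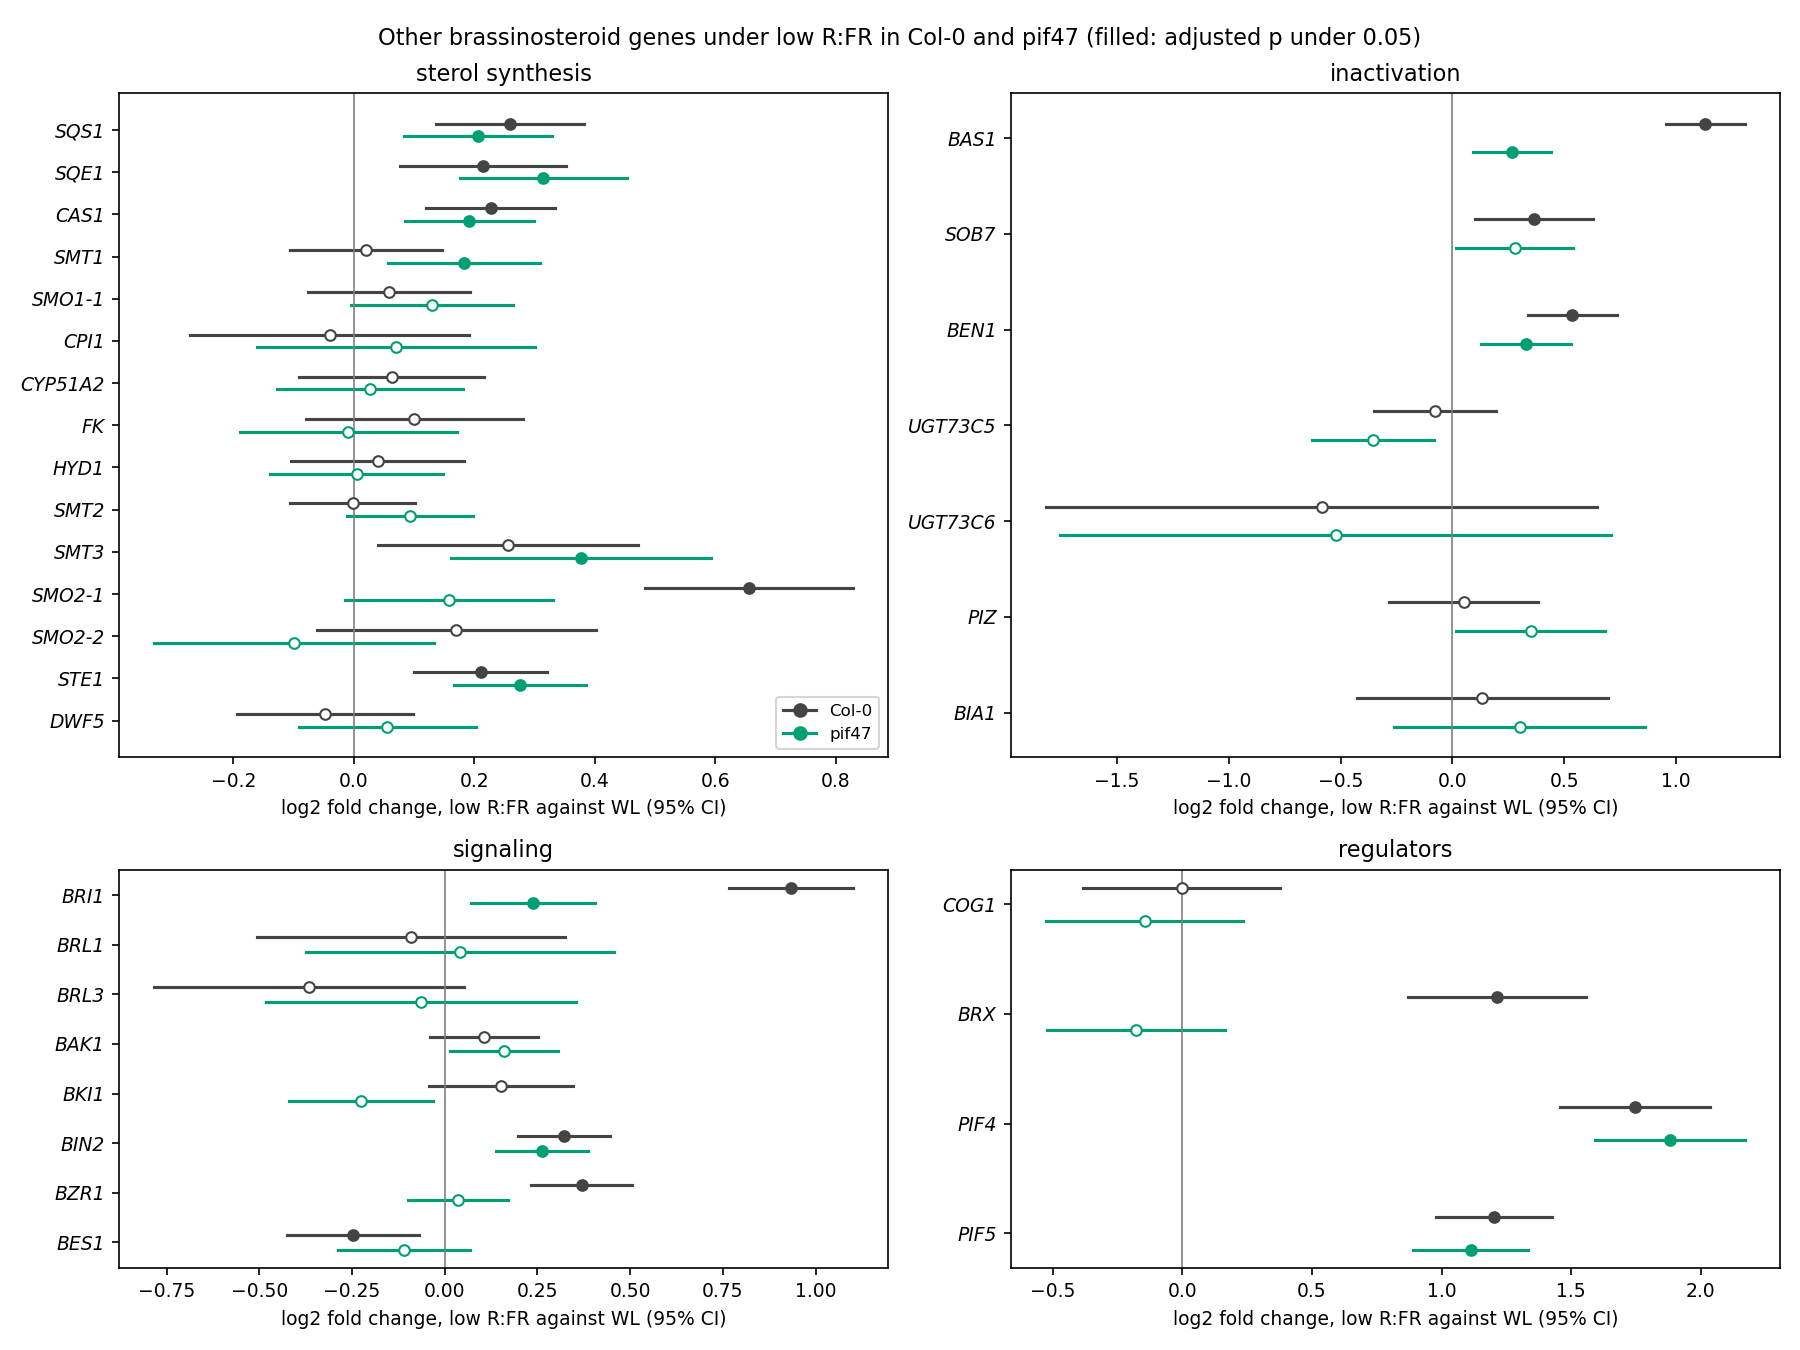
Low R:FR responses (log2 difference from WL) of Col-0 and pif47 for the tested genes of 4 lists (sterol synthesis, inactivation, signaling, regulators), with 95% confidence intervals and filled points for a limma adjusted p under 0.05. BAS1, BRI1, BRX and SMO2-1 change less in pif47 than in Col-0, while PIF4 and PIF5 change by 1.88 and 1.11 in pif47 against 1.75 and 1.20 in Col-0.

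The pif47 interaction was called for 1 gene of each list, all with a smaller response than in Col-0, as for CPD. The lists were chosen with earlier results of these data known, so this likeness is a description only. Over all tested genes 2.44% were called, and 348 of these 505 interactions were negative. The list genes were BAS1 (-0.87, limma adjusted p = 0.000257), BRX (-1.39, adjusted p = 0.00164), BRI1 (-0.70, adjusted p = 0.00131) and SMO2-1 (-0.50, adjusted p = 0.0236). The SMO2-1 call was lost without WL replicate 1 of Col-0, low R:FR replicate 2 of Col-0, WL replicate 3 of pif47, or low R:FR replicates 1 or 3 of pif47 (adjusted p from 0.0607 to 0.0752). In dvl1-1D, bsk36 and pif47, respectively, BAS1 responded by 0.87, 0.80 and 0.27 and BRI1 by 0.70, 0.64 and 0.24. In dvl1-1D and bsk36 the interaction passed for 0 genes of the 4 lists in limma, against 2.34% and 3.03% of tested genes. At an unadjusted p under 0.05 there were 1 inactivation, 1 signaling and 1 regulator gene and 0 sterol genes in dvl1-1D, and 2 genes of each list in bsk36. In WL, bsk36 was higher than Col-0 for 1 of 15 sterol genes, CAS1 (0.21), and for 0 of 7 inactivation genes. It was also higher for 1 of 8 tested signaling genes, BRI1 (0.30), and 1 of 4 tested regulators, PIF5 (0.40). In each list 0 genes were lower, and 18.6% of tested genes were called, as given above. The alternatives are not given for these WL calls.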

How the data were processed

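The authors deposited FPKM with 2 decimals for 32833 genes in 24 libraries. The submitters' processing notes name fastp, cutadapt, HISAT2, DESeq2 and the build TAIR10, without versions or roles, and the counting method is not given in the sources used here. The 8 deposited columns of group means were not used.

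Genes with a mean of at least 0.5 FPKM were tested with limma 3.58.1 in R 4.3.3 on log2(FPKM + 0.1). The model had 8 group means over all 24 libraries, without a replicate term, and eBayes with a mean-variance trend. It was also run on simulated data with independent errors. The changes set there were no smaller than the study's fold threshold and left out the lowest genes. Small differences and low genes such as BR6OX1 were therefore not covered. FPKM are not counts, so the study's count-based test was not used. P-values were adjusted by Benjamini-Hochberg over all 20682 tested genes, and a gene was called under 0.05. A log2 difference on this scale understates changes of low genes, and at unknown depth no counting interval can be given.

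All 8 genes were tested in every comparison, but differences that did not pass are given for a part of them only. Of each other list at most 4 called genes are named, those with the smallest p. For each of the 8, the 3 genes of highest Pearson r are given or the top one. The members and lists were chosen with earlier results of these data known. Names come from a RefSeq table of TAIR10.1, in which 32548 locus codes were found. No coordinates are given, and sequences were not analysed here. Same-numbered replicates did not deviate together (correlations -0.14 to 0.09, in 0 of 10 comparisons all above 0.1).

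Alternatives were pseudocounts of 0.5 and 1, no filter beyond a mean above 0, a filter at a mean of 5 FPKM, libraries scaled to a common median, no trend, a replicate block, the groups of each comparison alone, and each library left out. Leaving out a library of another group keeps the log2 difference and changes only its SE and the adjustment. Such fits are a weaker check than those without a library of the groups compared.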

Additional observations from a re-analysis of the deposited data

Results flagged for a closer look

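The low R:FR response of CPD differed from that of Col-0 by -0.51 in bsk36 and by -0.63 in pif47 in log2 units, by the interaction test (limma adjusted p = 0.0212 and 0.00408). The BR6OX2 response was larger than in pif47 by 1.07 in dvl1-1D (limma adjusted p = 0.000527) and by 0.62 in bsk36 (adjusted p = 0.0389), in comparisons chosen after the values were seen. Of the 32 alternatives, the bsk36 result was lost in 7 for CPD and in 12 for BR6OX2. The pif47 result for CPD and the dvl1-1D result for BR6OX2 were lost in 0. The bsk36 losses included 5 fits for CPD and 10 for BR6OX2 without 1 library, each time a library of the groups compared.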

How the results depend on the processing

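Of 23 calls of a synthesis gene over the 16 comparisons, 12 were made in each of the 32 alternatives, and a called difference changed its sign in 0 of them. The 12 are the CPD responses of the 4 genotypes, the BR6OX2 responses of Col-0, dvl1-1D and bsk36, CPD in bsk36 in WL, CPD and BR6OX2 in pif47 in low R:FR, the CPD interaction of pif47, and the BR6OX2 response of dvl1-1D against pif47. With the groups of a comparison alone, the number of synthesis genes called was 3 in place of 4 for the dvl1-1D response, 2 in place of 3 for pif47 in low R:FR, 1 in place of 2 for the pif47 response, 1 in place of 0 for dvl1-1D in WL, 1 in place of 3 for bsk36 in WL, 1 in place of 2 for dvl1-1D in low R:FR, 0 in place of 1 for bsk36 in low R:FR and for the bsk36 interaction, and 2 in place of 1 for the response of dvl1-1D against pif47. Libraries scaled to a common median gave 1 for dvl1-1D in WL and 0 for the bsk36 interaction. A filter at a mean of 5 FPKM gave 2 for the pif47 interaction. Without a filter or without the trend, 0 were called for bsk36 against pif47. Same-numbered replicates did not deviate together over all tested genes, but a batch shared by them is not excluded for single genes. With a replicate block DET2 in Col-0 (limma adjusted p = 0.0338) and BR6OX1 in dvl1-1D (adjusted p = 0.0439) passed for the low R:FR response. Without 1 library at a time, the number called ran from 2 to 3 for the response of Col-0, 2 to 4 in dvl1-1D and in bsk36, and 1 to 2 in pif47. It ran from 0 to 1 for dvl1-1D and 1 to 3 for bsk36 in WL, 1 to 2 for dvl1-1D and 0 to 1 for bsk36 in low R:FR, 0 to 2, 0 to 1 and 1 to 2 for the interactions of dvl1-1D, bsk36 and pif47, and 0 to 1 for bsk36 against pif47. By the study's thresholds in Col-0 it was 0 to 1, with 0 without low R:FR replicate 1 of Col-0. The DWF1 difference of bsk36 in WL was lost without any of 16 libraries (replicates 1 and 2 of Col-0, 2 of dvl1-1D and all of bsk36 and pif47 in WL, and in low R:FR replicate 3 of Col-0, all of dvl1-1D, 2 of bsk36 and 1 and 3 of pif47, with adjusted p from 0.0504 to 0.156). The counting error of BR6OX1, the lowest gene, is unknown.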
